A study of Mus musculus with 4 samples.

Results

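The interferon response genes described here are a list of 33 genes whose transcription interferons raise in most cell types. They were taken by symbol with no cut on their values, but with earlier results of these data known. Of the 33, 28 had a probe set that the platform annotation gives to that gene alone, and these 28 were measured, among 12393 genes measured in all. The other 5 (Isg15, Ifi44, Ly6a, Ly6e and Xaf1) are not analysed here: the single probe set that carries Isg15 also carries another gene, and the other 4 had no named probe set. All 28 lay on at least 1 array above a signal of 93.9, the 40th percentile of all values, which serves as a floor (lower signals are raised to it), and 26 of the 28 lay above it on all 4 arrays (8629 and 6882 of all genes did so).

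The cells were T cells from the spleens of C57BL/6 mice, sorted after antibody staining for CD4, CD8 and CD44, and their RNA was hybridised to Affymetrix MOE430A_2.0 arrays. There were 4 groups with 1 array each: CD4+ and CD8+ cells from mice labelled Gfi1 knockout, and the same subsets from mice labelled wildtype. All were untreated and are described as low for CD44, the hyaluronan receptor, of which naive T cells have little, and RNA of 2 mice was pooled for every array. The stated aim was to compare naive T cells with and without Gfi1, a zinc finger repressor of transcription. The labels give neither the kind of knockout allele nor the age of the mice. With 1 array per group there is no replicate, so differences between arrays below have no error of their own and describe these arrays only.

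Interferons are secreted proteins that cells release on infection. Type I interferons act through the receptor IFNAR and the kinases JAK1 and TYK2 and lead to a complex with STAT2 and IRF9 that binds the interferon-stimulated response element in promoters, while interferon gamma acts through IFNGR, JAK1 and JAK2 and on promoters with the gamma-activated site. Type I targets include enzymes that degrade or sequester viral RNA, and interferon gamma is a strong inducer of the GTPases that attack vacuoles holding parasites and bacteria. T cells of an uninfected spleen carry a basal level of many of these transcripts.

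The promoters are shown for 4 members among those furthest apart between the labelled genotypes, to let their response elements be read beside their values. They were chosen after their values were seen: a rule asking for members at least 2-fold apart in one direction in both subsets, with a response element, found none. The sequences are RefSeq's (GRCm38.p6), the 150 bases before the annotated start, 5′ to 3′ on the gene's strand, and capitals mark the core of the response element, here GAAA, any 2 bases, and GAAA again, on either strand. The intervals are chr3:142620513-142620662 (plus strand) for Gbp2, chr3:142559894-142560043 (plus) for the first of the 2 annotated starts of Gbp3, chr12:26456453-26456602 (minus) for Rsad2 and chr5:114896784-114896933 (plus) for Oasl2.
Gbp2: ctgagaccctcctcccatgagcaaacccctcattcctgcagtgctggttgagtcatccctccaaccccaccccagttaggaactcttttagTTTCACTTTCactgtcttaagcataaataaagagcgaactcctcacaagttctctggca
Gbp3: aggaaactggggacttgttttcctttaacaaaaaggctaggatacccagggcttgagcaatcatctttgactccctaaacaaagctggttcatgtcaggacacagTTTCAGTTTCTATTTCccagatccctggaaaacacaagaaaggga
Rsad2: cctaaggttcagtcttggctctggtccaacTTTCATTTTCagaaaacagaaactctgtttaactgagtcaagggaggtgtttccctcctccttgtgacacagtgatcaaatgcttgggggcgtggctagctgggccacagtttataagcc
Oasl2: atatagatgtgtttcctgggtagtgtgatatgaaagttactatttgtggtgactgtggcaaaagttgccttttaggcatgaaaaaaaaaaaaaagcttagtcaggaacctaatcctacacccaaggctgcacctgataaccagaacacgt

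All the cores in these windows read as TTTC, any 2 bases, and TTTC, which is the motif on the opposite strand. Gbp2 holds 1 core, at 59 to 50 bases before the start (positions -59 to -50), Gbp3 holds 2 that overlap (positions -45 to -36 and -39 to -30), and Rsad2 holds 1 (positions -120 to -111). The window of Oasl2 held no match, which says only that these letters are not in it. Over windows of 300 bases (250 before to 50 after the start), 25 of the 33 members matched a RefSeq promoter, and 13 of these 25 (52.0%) held the core in at least 1 window, against 3.99% of 27025 genes. A longer form, with CT after the core, was found in 8 of 25 members and 0.303% of genes, and contains the core by construction. The gamma-activated site, TTCNNNGAA, was found in 8 of 25 members and 9.55% of genes. It stood in the windows of Irf1, Isg20, Ifit2, Oas1a, Ifi35, Igtp, Bst2 and Samhd1. Igtp, Oas1a and Bst2 held both kinds of motif, and in Bst2 the gamma-activated site at -136 to -128 overlaps the response element at -130 to -121. A match is a description of the letters and not a bound site.

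The library labels were set against their markers before the members. Cd4 and Cd8a, the sorted markers, were above the floor only on the arrays of their own subset, as was Cd40lg. Zbtb7b, Cd8b1 and Runx3 were above it on all 4, with Cd8b1 at 970.5 and 312 on the CD4 arrays labelled knockout and wildtype against 25715 and 26222 on the CD8 arrays, and all 5 pan-T markers measured were above it on all 4 arrays. Cd44 read 196 (CD4) and 252 (CD8) on the arrays labelled knockout but 8136 and 5740 on those labelled wildtype, against the description of all 4 samples as CD44 low. The sample titles also end in the letter N for both knockout samples and M for both wildtype samples, which the labels do not explain. Gfi1 was not lower on the arrays labelled knockout (log2 difference 0.35 in CD4 and 1.08 in CD8 cells), and no source says where its probe set lies relative to the deletion. Over 16 memory and effector T cell markers the summed signal was 20642 and 39164 on the arrays labelled knockout and 121904 and 110526 on those labelled wildtype, and over 13 cell cycle genes it was 2409 and 4666 against 26986 and 12713, CD4 first in each pair. The array labelled wildtype CD8 stood apart in dendritic cell and MHC class II genes. There 7 of 8 dendritic cell markers were above the floor, against 2 or 3 on the others. Their summed signal was 17426 against 3421 to 3942, with Cst3 alone at 15156 on that array. The 5 MHC class II genes summed to 46849 against 1509 to 4106. Other lists did so less or not at all. Monocyte and macrophage markers summed to 1259.5 against 736 to 849, with 5 of 9 above the floor against 3 to 6. Plasmacytoid dendritic cell markers summed to 6538 against 4527 to 12257, and B cell markers to 12705 against 13667 to 17007. Genotype is therefore given as labelled. The memory and cell cycle markers are split by genotype label in both subsets, so the label and these marker levels cannot be told apart in this design. The part of the dendritic cell and MHC class II genes in the results below was not tested. In sorted bulk cells, fewer cells of one type and less RNA per cell cannot be told apart.

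As a group, the interferon response genes lay close to level between the labelled genotypes. Their median log2 difference, labelled knockout minus wildtype, was 0.05 in CD4 and 0.09 in CD8 cells, where the median of all 8629 genes was 0 in both. The 16 memory and effector markers, by the same measure, had medians of -4.45 and -2.77. Of the 28 genes, 15 were above and 13 below 0 in CD4 cells, and 17 above and 11 below in CD8 cells. Of all 8629 genes, 3915 were above and 4235 below in CD4 cells, and 3823 above and 4265 below in CD8 cells. Centring arrays on their medians moved the median of genes above the floor on all arrays from 0.01 to 0.33 in CD4 cells. In CD8 cells it moved from 0.00 to 0.21. The members' CD8 split then became 23 to 5, and that of all genes was not counted at this setting. The single members were not all level. The median size of the log2 difference, regardless of sign, was 0.43 in CD4 cells (0.27 over all genes) and 0.19 in CD8 cells (0.18 over all genes).

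In CD4 cells, 4 of the 28 members were at least 2-fold lower on the array labelled knockout (Mx1, Oasl2, Rsad2 and Gbp3), against 7.3% of all 8629 genes, and 0 were at least 2-fold higher, against 1.95%. In CD8 cells, 1 was at least 2-fold lower (Oasl2; 4.02% of all genes) and 2 were at least 2-fold higher (Iigp1 and Gbp2; 1.14% of all genes). Within 1.5-fold lay 19 of the 28 members in CD4 cells (67.9%, against 78.1% of all genes) and 21 in CD8 cells (75.0%, against 86.6%). With subset as a covariate, limma called 1 of the 28 members as different between the labelled genotypes at an adjusted p under 0.05, over all 8629 genes: Gbp2 rose, and none fell. At an unadjusted p under 0.05 there were 8 members, against 1141 of all genes. It called 0.104% of all genes as higher and 0.545% as lower. The fit has 1 residual degree of freedom, takes disagreement between the subsets as its error and measures no spread between mice, and Gbp2 passed in 5 and missed in 7 of 12 other settings (adjusted p from 4.24e-05 to 0.841).

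**Figure D1:**
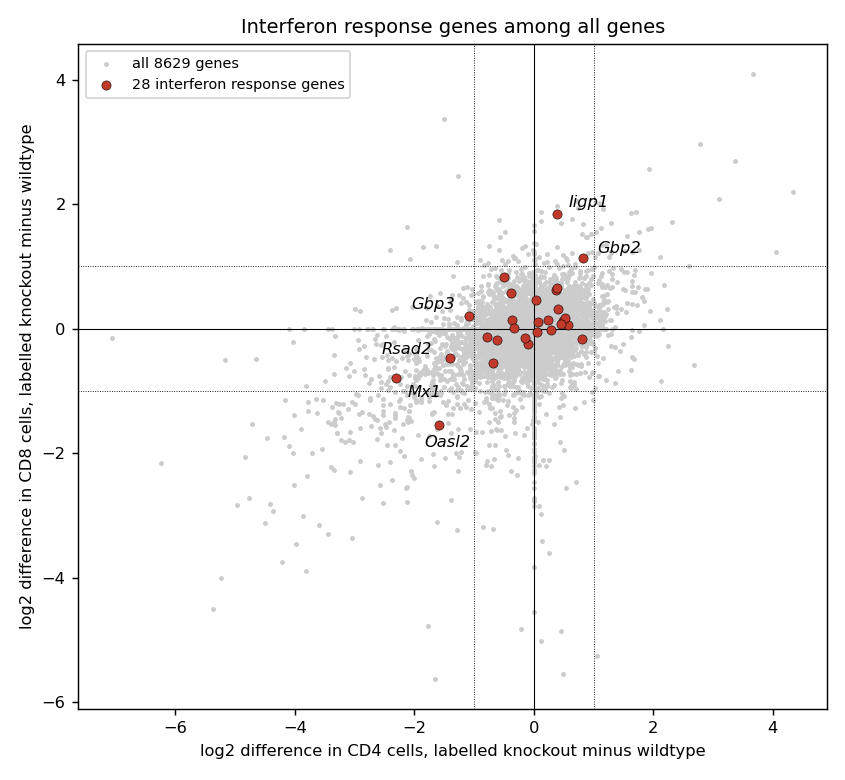
Log2 difference between the arrays labelled knockout and wildtype in CD4 cells (x axis) and CD8 cells (y axis) for all 8629 genes (grey) and the 28 interferon response genes (red), with dotted lines at 2-fold and 1 array per group. Most red points lie inside the dotted square, with Mx1, Rsad2, Gbp3 and Oasl2 (-1.59 and -1.54, both bounds) beyond the left line and Gbp2 (0.82 and 1.14) and Iigp1 beyond the upper one.

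The 4 transcription factors of the pathway all lay within 1.5-fold in both subsets. Irf1, the factor that carries much of the response to interferon gamma, read 8621 and 7785 on the arrays labelled knockout (here and below CD4 first, then CD8) and 6120 and 7154 on those labelled wildtype. Both knockout-labelled signals were the higher ones, by 1.41-fold in CD4 and 1.09-fold in CD8 cells. Irf9, the DNA-binding subunit of the type I complex, read 3818.5 and 3132 against 3659 and 3260, so that the arrays overlapped. Its partner Stat2 read 339.5 and 342 against 378 and 377.5, a difference of 1.11-fold and 1.10-fold with both knockout-labelled arrays lower as deposited but not after quantile normalization in CD4 cells or with median centring in either subset, and another probe set of Stat2 gave log2 differences of 0.15 and -0.03. Irf7, which amplifies type I interferon production, read 1452 and 1199 against 1558 and 1415, and was lower in each subset on the knockout-labelled array by 1.07-fold and 1.18-fold as deposited, though not in CD4 cells with median centring.

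Among the 7 effectors directed at RNA or, for Samhd1, at nucleotides, 1 was low on both arrays labelled knockout. Oasl2, an oligoadenylate synthase-like protein, read 30.1 and 33.1 on the arrays labelled knockout, below the floor, and 282 and 274 on those labelled wildtype. It was lower on the arrays labelled knockout by at least 3.01-fold in CD4 and at least 2.92-fold in CD8 cells, as the only member at least 2-fold apart in both subsets, and limma did not call it (adjusted p = 0.0730). The result follows the floor: with the floor at the 25th percentile limma called it (adjusted p = 0.00139), and at the 60th percentile its log2 difference was 0 in both subsets because all 4 signals then lay below the floor. Oas1a, an oligoadenylate synthase that activates RNase L, read 1071 and 1007.5 against 1847 and 1108, with the array labelled wildtype CD4 above the other 3. As deposited, both knockout-labelled signals were lower in their subset, by 1.73-fold in CD4 and 1.10-fold in CD8 cells, and with median centring the CD8 direction turned.

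The Ifit genes encode a family of antiviral proteins, of which IFIT1 binds viral RNA lacking the host's cap methylation. Ifit1 read 789.5 and 731.5 on the arrays labelled knockout against 1020 and 667 on those labelled wildtype. Ifit2 read 1598.5 and 1023 against 1071 and 985. Ifit3 read 1331 and 1767 against 1095 and 1785. These neighbouring family members did not share a direction: in CD4 cells Ifit1 was 1.29-fold lower on the knockout-labelled array while Ifit2 was 1.49-fold and Ifit3 1.22-fold higher, and in CD8 cells each was within 1.10-fold as deposited. Ifit3 followed the subset, with both CD8 arrays above both CD4 arrays.

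Isg20, an RNA exonuclease, ranged widely, at 1563 and 1062 on the arrays labelled knockout against 2216 and 596 on those labelled wildtype. It was 1.42-fold lower in CD4 cells and 1.78-fold higher in CD8 cells on the knockout-labelled array, and the difference between these differences (1.34 on the log2 scale) was not tested. Samhd1, which hydrolyses the nucleotides that retroviruses need, read 6989.5 and 7003 against 6806 and 5073. The array labelled wildtype CD8 was the low one for both genes on the probe sets used. Another probe set of Samhd1 was also lowest there (3167). On 2 further ones the array labelled wildtype CD4 was lowest (764 and 553.5, against 1671 and 1181 on wildtype CD8). The other 3 probe sets of Samhd1 above the floor on all arrays gave log2 differences from -0.16 to 0.59 in CD4 and from 0.05 to 0.45 in CD8 cells, so that all 4 probe sets were above 0 in CD8 cells only.

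**Figure D2:**
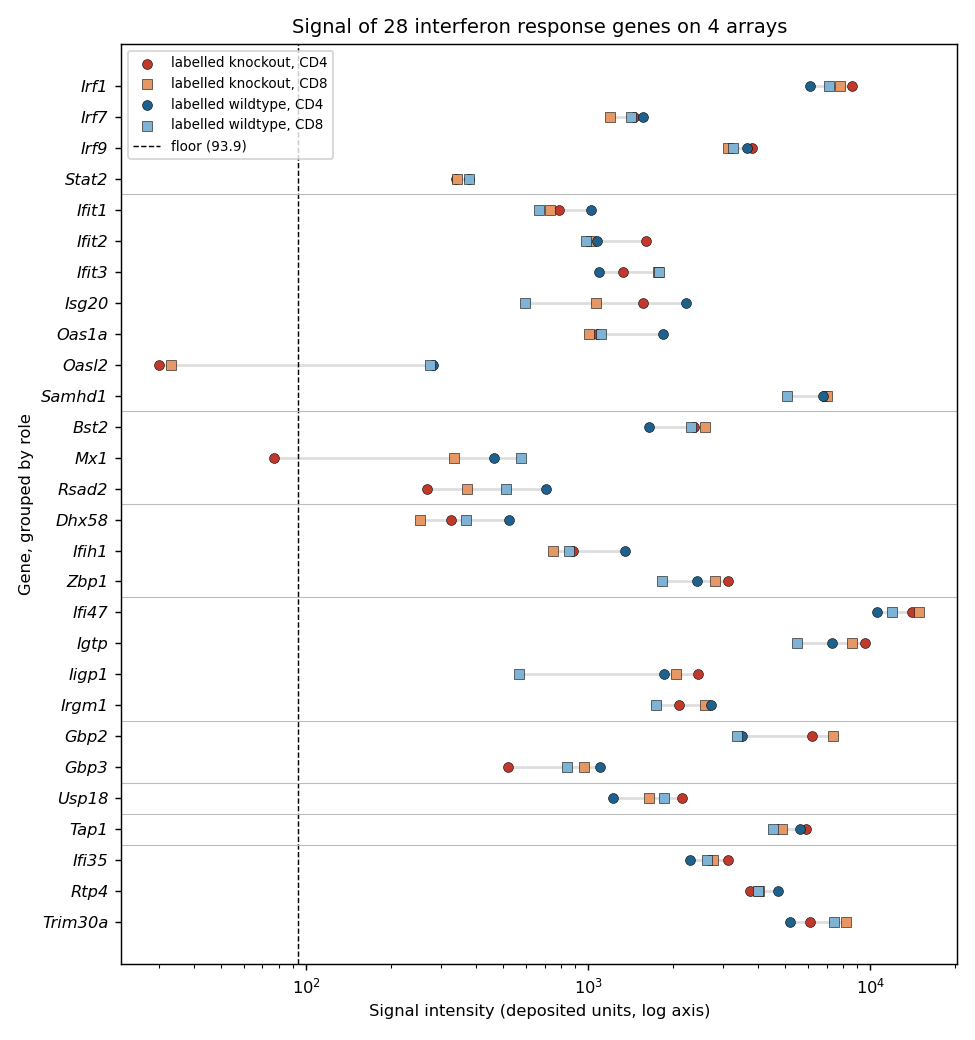
Signal intensity (x axis, log scale) of each of the 28 measured interferon response genes (rows, grouped by role) on the 4 arrays, 1 point per array, with the floor of 93.9 dashed. Points are comparable within a row and not between rows. Oasl2 lies below the floor on both arrays labelled knockout and Mx1 on the CD4 array labelled knockout, and Iigp1 and Isg20 are lowest on the array labelled wildtype CD8.

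Among the effectors that act on virions and membranes, Mx1 and Rsad2 were lower on the arrays labelled knockout and Bst2 was higher. Mx1, a dynamin-like GTPase that blocks influenza virus and that is known to be defective in many laboratory strains, read 76.6 and 333 on the arrays labelled knockout against 462 and 579.5 on those labelled wildtype. The fold was at least 4.92 in CD4 and 1.74 in CD8 cells, and both wildtype-labelled arrays lay above both others (limma adjusted p = 0.182). Rsad2, which encodes viperin, read 268 and 370 against 707 and 513. In CD4 cells it was 2.64-fold and in CD8 cells 1.39-fold lower, again with no overlap between the labels (limma adjusted p = 0.310). Here and elsewhere, the share of all genes whose labels do not overlap was not counted, and such a separation is not a test. The 2 other probe sets of Rsad2 gave -1.43 and -1.40 in CD4 cells and -0.08 and -0.18 in CD8 cells, so the CD4 difference was shared by all 3 and the CD8 difference was smaller on the others. Bst2, the tetherin gene, read 2368.5 and 2599 against 1647 and 2318, 1.44-fold and 1.12-fold higher on the knockout-labelled arrays.

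The sensors of foreign nucleic acid went in both directions. Ifih1, which encodes the RNA sensor MDA5, read 882 and 752.5 on the arrays labelled knockout against 1348 and 855, and was 1.53-fold and 1.14-fold lower. Dhx58, whose product LGP2 regulates MDA5, read 326 and 252.5 against 522 and 369, and was 1.60-fold and 1.46-fold lower, while its other probe set above the floor gave log2 differences of -0.07 and -0.41. For both genes each knockout-labelled array was the lower one of its subset as deposited (with median centring Ifih1 turned in CD8 cells), but the ranges of the labels overlapped for Ifih1, where the CD4 array labelled knockout lay above the CD8 array labelled wildtype. Zbp1, a sensor of Z-form nucleic acid that triggers necroptosis, went the other way. It read 3126 and 2817 against 2422 and 1833, 1.29-fold and 1.54-fold higher, with both knockout-labelled arrays above both others (limma adjusted p = 0.191), and its other probe set gave log2 differences of 0.30 and 0.26.

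Interferon gamma is a strong inducer of the immunity-related GTPases, which disrupt vacuoles that shelter pathogens. All 4 measured (Ifi47, Igtp, Irgm1 and Iigp1) were higher in CD8 cells on the array labelled knockout, as deposited, after quantile normalization and after median centring, while 3 of the 4 were higher in CD4 cells under each of these. Over all genes as deposited, 44.3% lay above 0 in CD8 and 45.4% in CD4 cells, and this grouping by role was made with the values known. Limma called none of them (adjusted p from 0.163 to 0.916). Igtp read 9609 and 8623 on the arrays labelled knockout against 7306 and 5501, and Ifi47 read 14072 and 14938 against 10607 and 11936. For both genes the knockout-labelled arrays lay above both wildtype-labelled ones, by 1.32-fold and 1.57-fold for Igtp and by 1.33-fold and 1.25-fold for Ifi47.

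Iigp1 had the largest CD8 fold of the members measured above the floor on both arrays. It read 2447 and 2046 on the arrays labelled knockout against 1861 and 570 on those labelled wildtype, so the signal labelled wildtype CD8 stood alone below the other 3. The difference was 3.59-fold in CD8 and 1.32-fold in CD4 cells (limma adjusted p = 0.20). Its other probe set gave a log2 difference of 2.35 in CD8 cells but -0.13 in CD4 cells, so only the CD8 direction was shared. Irgm1, a regulatory member of the family, read 2098 and 2598 against 2722 and 1739, and was 1.30-fold lower in CD4 and 1.49-fold higher in CD8 cells. For Igtp, Irgm1 and Iigp1 the array labelled wildtype CD8, the one with high dendritic cell and MHC class II signals, had the lowest signal of the 4.

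The guanylate-binding proteins coat such vacuoles, and the 2 measured differed from each other. Gbp2 read 6211 and 7379 on the arrays labelled knockout against 3509.5 and 3359 on those labelled wildtype. The arrays of the labels did not overlap, and Gbp2 was 1.77-fold higher in CD4 and 2.20-fold higher in CD8 cells (limma log2 0.98 ± 0.14 SE, adjusted p = 0.0450). Its other probe set gave log2 differences of 0.92 and 1.16. Gbp3 read 518 and 962.5 against 1102 and 840, and was 2.13-fold lower in CD4 cells but 1.15-fold higher in CD8 cells on the array labelled knockout. Both genes carry the longer response element just before the start shown above. For Gbp3 this is the first of its 2 annotated starts, and the 150 bases before the second held no core. In CD4 cells the 2 genes lay on opposite sides of 0 in all 3 scalings.

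The remaining 5 members were all below 2-fold in both subsets as deposited. With median centring Usp18 had a log2 difference of 1.13 in CD4 cells, above 2-fold. Usp18, a protease that removes ISG15 and damps the type I receptor, read 2148 and 1647.5 on the arrays labelled knockout against 1224 and 1851, and was 1.76-fold higher in CD4 but 1.12-fold lower in CD8 cells as deposited, where median centring turned the CD8 direction. Tap1, a subunit of the peptide transporter of MHC class I loading, read 5937 and 4882 against 5624 and 4506.5, within 1.08-fold in both subsets. Trim30a, a RING finger protein, read 6125 and 8170 against 5199 and 7429, with both CD8 arrays above both CD4 arrays. Ifi35 read 3138 and 2764 against 2301 and 2628, and was 1.36-fold and 1.05-fold higher on the knockout-labelled arrays. Rtp4, a receptor transporter protein, read 3750 and 4045 against 4717 and 4002, 1.26-fold lower in CD4 and 1.01-fold higher in CD8 cells (lower there after quantile normalization), while its other probe set gave log2 differences of 0.30 and -0.22.

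**Figure D3:**
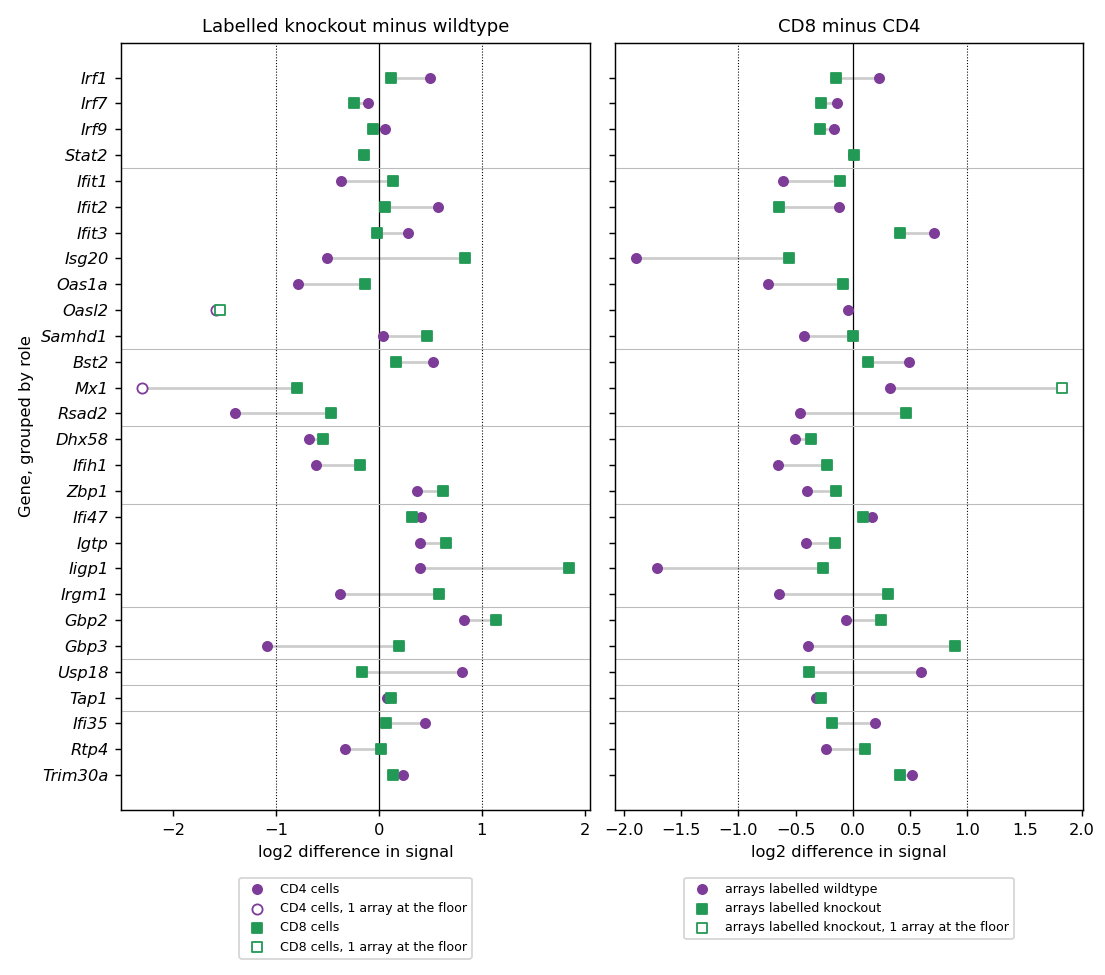
Log2 difference in signal of each of the 28 genes (rows, grouped by role), between the labelled genotypes in each subset (left) and between CD8 and CD4 cells within each label (right). Each point is 1 array minus another, open points have 1 array at the floor and are bounds, a pair with both arrays at the floor is not drawn, and dotted lines mark 2-fold. Only Oasl2 lies beyond the left dotted line in both subsets, and Isg20 and Iigp1 lie beyond it for CD8 against CD4 on the arrays labelled wildtype.

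Between the subsets, the members tended to be lower in CD8 than in CD4 cells on the arrays labelled wildtype. There 20 of the 28 were lower and 8 higher in CD8 cells, with a median log2 difference of -0.20 (0 over all genes). Of all 8629 genes, 4265 were lower and 4084 higher there. The members' split was 18 to 10 after quantile normalization and 17 to 11 with arrays centred on their medians. The split of all genes was not counted at these 2 settings. On the arrays labelled knockout 15 were lower, 12 higher and 1 at the floor on both, with a median of -0.10. Of all 8629 genes, 3978 were lower and 3845 higher in CD8 cells on these arrays. At 2-fold, 2 members were lower in CD8 cells on the arrays labelled wildtype (Isg20, 3.72-fold, and Iigp1, 3.26-fold; 5.02% of all genes) and 0 were higher (3.13%). On the arrays labelled knockout 1 was higher (Mx1, at least 3.55-fold; 1.94%) and 0 were lower (1.27%). Limma called 0 of the 28 members between the subsets, with 6 at an unadjusted p under 0.05 (834 of all 8629 genes), and called 0.185% of all genes as higher and 0.0695% as lower in CD8 cells. The lowest adjusted p among the members was that of Isg20 (0.257). Subtracting the CD4 from the CD8 log2 difference between the genotype labels gave a median of 0.19, with 4 members at 1 or above (Gbp3 1.28, Isg20 1.34, Iigp1 1.45 and Mx1 at least 1.5) and 0 at -1 or below. Over all 8629 genes the median was 0.00, with 528 at 1 or above and 294 at -1 or below. This contrast has no residual degree of freedom and was not tested.

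The signals of the members were spread unevenly over the arrays. The array labelled wildtype CD8 held the lowest signal for 10 of the 28 members (35.7%, against 1725 of all 8629 genes), and for 10 and 13 after quantile normalization and median centring. The array labelled wildtype CD4 held the highest for 12 (42.9%, against 32.9% of all genes), which was 6 with median centring. From the lowest to the highest array the median member spanned 1.63-fold, against 1.4-fold over all genes. Stat2 spanned least, at 1.11-fold, and Mx1 most, at 6.17-fold or more.

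**Figure D4:**
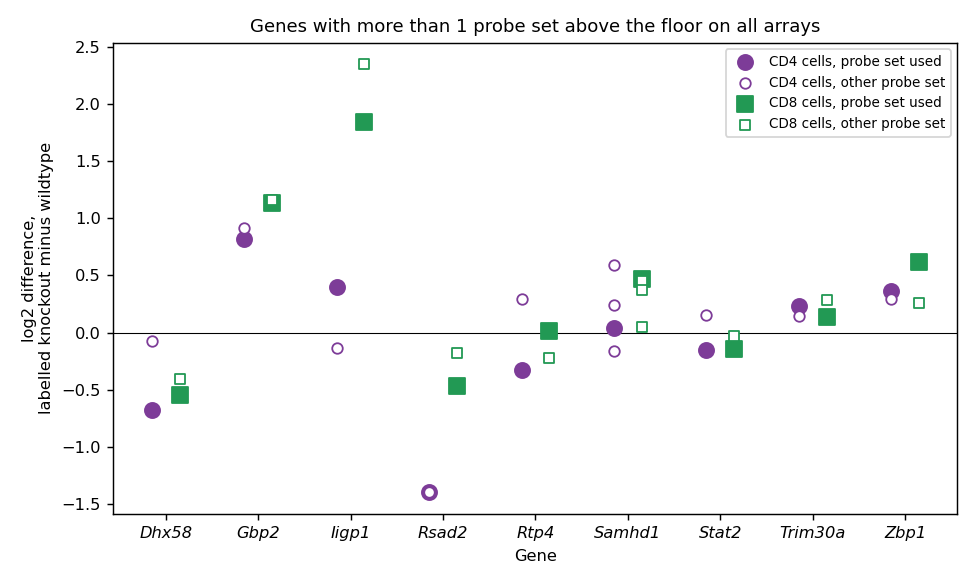
Log2 difference between the arrays labelled knockout and wildtype (y axis) for the 9 members with more than 1 probe set above the floor on all 4 arrays (x axis), in CD4 (circles) and CD8 cells (squares), with the probe set used filled and the others open. Gbp2 and, in CD8 cells, Iigp1 keep their direction on each probe set. Rtp4 in both subsets, and Stat2, Iigp1 and Samhd1 in CD4 cells, have points on both sides of 0.

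Upstream of the members, limma called 1 ligand gene and 1 receptor or signalling gene, where it called 56 of all 8629 genes. Of 11 interferon genes listed, 7 were measured and 2 lay above the floor on any array. Ifng, the interferon gamma gene, read 24.6 and 123 on the arrays labelled knockout against 1995 and 868 on those labelled wildtype, at least 21.2-fold and 7.05-fold lower, and fell by limma (adjusted p = 0.0279). It is also 1 of the 16 memory and effector markers. Ifnb1 read 101 on the array labelled wildtype CD4 and lay below the floor elsewhere, and Ifna1, Ifna2, Ifna4, Ifna5 and Ifna11 lay below it on all 4.

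Of 20 receptor and signalling genes, 18 were measured and limma called 1, with 9 at an unadjusted p under 0.05 (1141 of all 8629 genes). Socs3, a feedback inhibitor of cytokine receptors, rose (log2 2.01 ± 0.17 SE, adjusted p = 0.0107). Ifngr2, the signalling chain of the interferon gamma receptor, read 958 and 474 on the arrays labelled knockout against 245 and 154, 3.91-fold and 3.07-fold higher, and was not called (adjusted p = 0.0730). Its partner chain Ifngr1 read 2503 and 4294 against 2419 and 5140 and followed the subset. For the type I receptor, Ifnar1 read 1459 and 1428 against 1502 and 1502, level on all arrays, while Ifnar2 read 1092 and 1231 against 2016 and 1975, 1.85-fold and 1.61-fold lower (adjusted p = 0.0960). The kinase gene Tyk2 was 1.57-fold and 1.53-fold lower (adjusted p = 0.180). Irf4, a factor of activated lymphocytes, read 291 and 179 against 1134 and 241, 3.90-fold and 1.34-fold lower, with the array labelled wildtype CD4 far above the others. Irf8 and Irf5, factors of myeloid and B cells, were 3.07-fold and 8.64-fold (Irf8) and 2.33-fold and 3.95-fold (Irf5) lower (adjusted p = 0.0692 and 0.0934), and the highest signal of both was on the array labelled wildtype CD8.

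A wider list of 95 interferon targets outside the 33 had medians near 0 as well. Of the 69 measured, 62 passed the floor on some array, with a median log2 difference of 0.00 in both CD4 and CD8 cells. At 2-fold, 0 of the 62 were higher (1.95% of all genes) and 7 lower (7.3%) in CD4 cells, and 2 were higher (1.14%) and 6 lower (4.02%) in CD8 cells. Limma called 0 of the 62, with 11 at an unadjusted p under 0.05 (1141 of all 8629 genes). Irgm2, another immunity-related GTPase, was 1.30-fold and 1.66-fold higher on the arrays labelled knockout, on the same side as Igtp and Ifi47. Slfn8, Oas2 and Tapbp were higher in both subsets as well, by 1.15-fold to 1.44-fold. Oas1b, a synthase related to Oas1a, was 3.07-fold and 1.46-fold lower, and Cmpk2, the nucleotide kinase gene next to Rsad2, was 2.43-fold and 1.48-fold lower (adjusted p = 0.247). Parp12 was 1.54-fold higher in CD4 cells and 1.05-fold lower in CD8 cells.

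**Figure D5:**
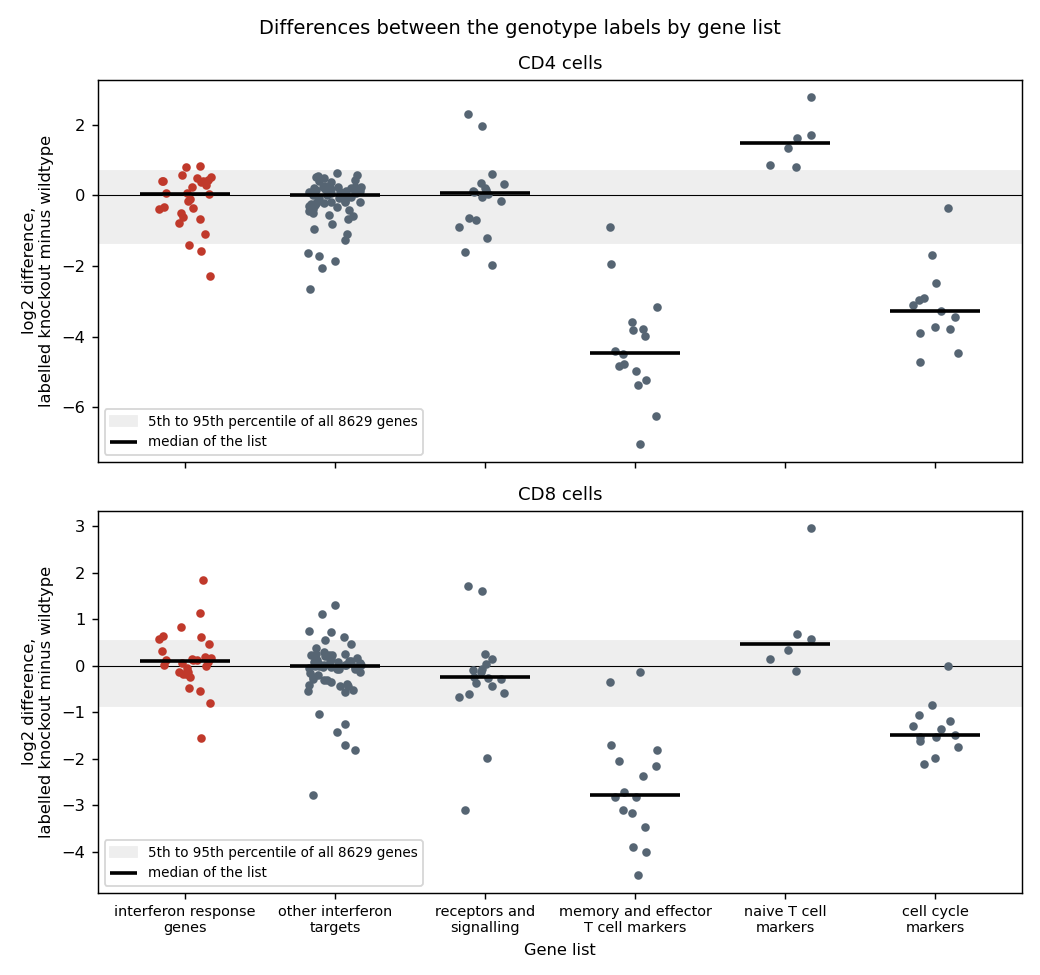
Log2 difference between the arrays labelled knockout and wildtype (y axis) in CD4 (top) and CD8 cells (bottom) for each gene of 6 lists (x axis; genes that pass the floor on some array, with signals below it raised to it), with the list's median as a bar and the 5th to 95th percentile of all 8629 genes shaded. The medians of the interferon response genes (0.05 and 0.09) and of the other interferon targets lie near 0, while those of the memory and effector markers lie at -4.45 and -2.77.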

How the data were processed

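Each array's deposited table holds 1 linear intensity per probe set, which the authors made with GCOS 1.4 and MAS5, per the submitters' processing notes. Scaling and background steps are not stated there. Of 22690 probe sets, 64 controls were left out. The platform annotation gave 1 symbol to 20380 probe sets and several to 691, which were not used; 1555 were not listed. Symbols were updated through RefSeq (GRCm38.p6), where 20351 matched. The array's build is not stated, so only promoters carry coordinates. Each gene took its probe set with the highest mean log2 signal, after raising signals below the floor (93.9, the 40th percentile) to it. A fold between a signal above the floor and one below it is a bound and is written "at least".

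The fit across 8629 genes used limma 3.58.1 under R 4.3.3, with genotype label and subset as terms, variances moderated along the trend with signal (5.39 prior degrees of freedom), Benjamini-Hochberg adjustment and a threshold of 0.05, and was tested on simulated data. Tables and plots were made with pandas 2.3.3, numpy 2.4.6 and matplotlib 3.10.9 under Python 3.11.15. Median signals were 189 to 235 per array, with precision limited by having 1 array a group. Nothing says that CD4 and CD8 cells came from different mice. Alternatives were scaling, floor, pseudocount, probe set choice, trend and filter. The members, lists and tests were chosen with earlier results of these data known, and the grouping by role was made after the values were seen. The rule for names asked for values on every array only for members at least 2-fold apart or called by limma; they are given here for all 28. Of the wider lists, genes were ranked in each direction by the lesser of their folds in CD4 and CD8 cells (up to 6 named) and by the fold in 1 subset (up to 3 named), with the receptor and ligand genes above the floor.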

Additional observations from a re-analysis of the deposited data

Results flagged for a closer look

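Casp1 and Casp4, caspase genes of the inflammasome in the wider interferon list, went opposite ways in the subsets by at least 1.5-fold. Casp1 read 383 (CD4) and 446.5 (CD8) on the arrays labelled knockout against 1605 and 206 on those labelled wildtype, 4.19-fold lower in CD4 and 2.17-fold higher in CD8 cells, and the log2 differences lie 3.18 apart. Casp4 read 311 and 315 against 1129 and 127, 3.63-fold lower and 2.48-fold higher, and the log2 differences lie 3.17 apart. In both genes the arrays labelled knockout were level and those labelled wildtype differed between the subsets. Since each group has 1 array, that difference was not tested. None of the 28 members met this rule. It was applied to the members and the wider interferon lists only, and how many of all genes meet it was not counted.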

How the results depend on the processing

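Each of the 4 groups has 1 array, and leaving 1 out leaves its group empty. No paired analysis was possible because the labels give no replicate numbers and each group has 1 array. Each alternative changed 1 choice, and the one choosing the probe set by its mean before the floor was added after seeing the data. A median was taken as kept when it moved by less than 0.1 on the log2 scale.

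With arrays centred on their medians, the members' median log2 difference was 0.364 in CD4 and 0.308 in CD8 cells. Then 2 members (Gbp2 and Usp18) were at least 2-fold higher in CD4 cells, and the share of all genes so raised was not counted. The median difference between the subsets' differences was 0.093 with this centring, against 0.193 as deposited. That median was 0.032 with averaged probe sets. Without multi-transcript probe sets the CD8 minus CD4 median on the arrays labelled wildtype was -0.364 against -0.202. The count at least 2-fold lower was 1 in CD4 and 0 in CD8 cells both with the floor at the 60th percentile and without multi-transcript probe sets, which leave fewer genes or fewer values above the floor. The share of all genes at least 2-fold lower was not counted at these settings.

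Limma's calls moved most. Of the 28 members, 0 were called between the genotype labels after quantile normalization, median centring, a 60th percentile floor or averaged probe sets. The same held with the probe set chosen before the floor, no trend or no filter. All these settings called between 0 and 47 of all genes, against 56 as deposited. With a 25th percentile floor 5 members were called (578 of all genes). Without a floor 3 were called (352), and with log2 of the value plus 16 there were 2 (266). How many genes each setting tested is not given here, so these are counts and not shares. Between the subsets, 2 members were called with the 25th percentile floor and 1 without a floor. The calls over all genes between the subsets were not counted at these settings, so these counts have no background share. Of the other interferon genes 2 were called as described above. After quantile normalization, median centring or the 60th percentile floor 1 was called (15, 17 and 31 of all genes). With averaged probe sets, no trend or no filter 0 were called (10, 0 and 0 of all genes). Without a floor, with the pseudocount or when every array had to pass the floor 5 were called (352, 266 and 201 of all genes). With the 25th percentile floor 11 were called (578 of all genes). The cause of these shifts was not tested. The longer response element was found in 8 members against 13 for the core.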
